A study of Mus musculus with 6 samples.

Results

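The interferon-inducible immunity-related GTPases Igtp, Irgm1, Irgm2, Iigp1, Tgtp1, Tgtp2 and Ifi47, together with the transcription factor gene Irf1 and the feedback inhibitor gene Socs1, were followed across bulk RNA libraries of mouse tumours. They were taken by gene name and make up 9 of the 34665 genes in the deposited count table. Each of the 9 names matched 1 row, and all 9 passed the filter on low counts that left 16924 genes for testing. The tumours were grown from B16, a pigmented mouse melanoma line, and are labelled wild type. One group of 3 libraries, called ICI here, came from tumours treated with an immune checkpoint inhibitor, a drug class that releases T cells from inhibitory signals (replicates 1, 2 and 3). The other 3 libraries, called RI, came from tumours treated with radiation plus the inhibitor (replicates 1, 2 and 4). Inhibitor treatment is thus shared by both groups, and no untreated group was analysed here. The sources used here do not say which checkpoint was blocked, how much radiation was given, when tissue was taken or where it lay relative to the beam.

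Immunity-related GTPases are mouse proteins that cells make in response to interferons, above all interferon gamma from T and NK cells. The effector members Iigp1, Tgtp1, Tgtp2 and Ifi47 gather on the membrane around intracellular parasites and bacteria and help to break it, while the regulators Irgm1, Irgm2 and Igtp sit on the cell's own membranes and hold the effectors inactive there. Interferon gamma signals through the JAK kinases, and its early target genes carry gamma-activated sequences (GAS) in their DNA. Irf1 is one such early target, whose protein binds interferon-stimulated response elements (ISRE) in many later genes, and Socs1 is induced by the same route and blocks the JAK kinases. In tumours these genes serve as a readout of interferon acting on tumour, immune and stromal cells alike.

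The upstream sequences show how closely some members resemble each other at letters that match the GAS and ISRE motifs. RefSeq windows on GRCm38.p6, from 250 bases before to 50 bases after a transcript start, were matched for 8 of the 9 members, all except Iigp1. Of these, 7 held a match in the 100 bases before the start, and those bases are printed 5′ to 3′ with the matches in capitals. They lie at chr11:58199456-58199555 (plus strand) for Igtp, chr11:58214877-58214976 (plus) for Irgm2, chr11:48992247-48992346 (minus) for Tgtp1, chr11:49064213-49064312 (minus) for Tgtp2, chr11:48871421-48871520 (minus) for Irgm1, chr16:10785537-10785636 (minus) for Socs1 and chr11:53769914-53770013 (plus) for Irf1.
Igtp: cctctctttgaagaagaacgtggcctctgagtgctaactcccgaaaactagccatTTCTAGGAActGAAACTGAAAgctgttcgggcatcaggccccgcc
Irgm2: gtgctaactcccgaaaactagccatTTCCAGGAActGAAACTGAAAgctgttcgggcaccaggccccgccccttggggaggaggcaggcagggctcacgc
Tgtp1: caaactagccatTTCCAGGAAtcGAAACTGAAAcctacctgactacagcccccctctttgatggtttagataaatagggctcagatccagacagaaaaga
Tgtp2: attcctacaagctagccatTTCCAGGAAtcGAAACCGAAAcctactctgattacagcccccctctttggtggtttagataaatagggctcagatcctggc
Irgm1: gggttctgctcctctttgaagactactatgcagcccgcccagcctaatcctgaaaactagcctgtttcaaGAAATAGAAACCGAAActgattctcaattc
Socs1: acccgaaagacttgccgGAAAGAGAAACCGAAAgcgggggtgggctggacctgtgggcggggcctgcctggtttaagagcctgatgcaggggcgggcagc
Irf1: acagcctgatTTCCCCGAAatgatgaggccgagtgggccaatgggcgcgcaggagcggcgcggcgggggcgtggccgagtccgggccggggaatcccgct

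Matches were searched on both strands with TTCNNNGAA for GAS and GAAANNGAAA for ISRE. Igtp, Irgm2, Tgtp1 and Tgtp2 each carried a GAS followed after 2 bases by an ISRE. The GAS began at base -45 in Igtp, -75 in Irgm2, -88 in Tgtp1 and -81 in Tgtp2, counted from the transcript start. Over the 21 bases of the joint stretch, Igtp and Irgm2 were identical at 20 bases, Tgtp1 and Tgtp2 also at 20, and the other pairs at 17 to 19. Irgm1 and Socs1 each had a pair of overlapping ISRE matches and no GAS, beginning at -30 and -24 in Irgm1 and at -83 and -77 in Socs1. Irf1, for which the most upstream of 2 listed starts was used, had a GAS at -90 and no ISRE. No match was found in the Ifi47 window. Among all 32851 windows of 300 bases, 8.30% held the GAS letters, 3.44% the ISRE letters and 0.0152%, or 5 windows, the joint stretch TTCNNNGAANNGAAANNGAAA. Those 5 belonged to Igtp, Irgm2, Tgtp1, Tgtp2 and Gm12185, a neighbour whose exons overlap those of Tgtp1. The spacing of the joint stretch was taken from these members' own sequences, so its rarity is a description. A match of letters does not show that a factor binds.

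**Figure D1:**
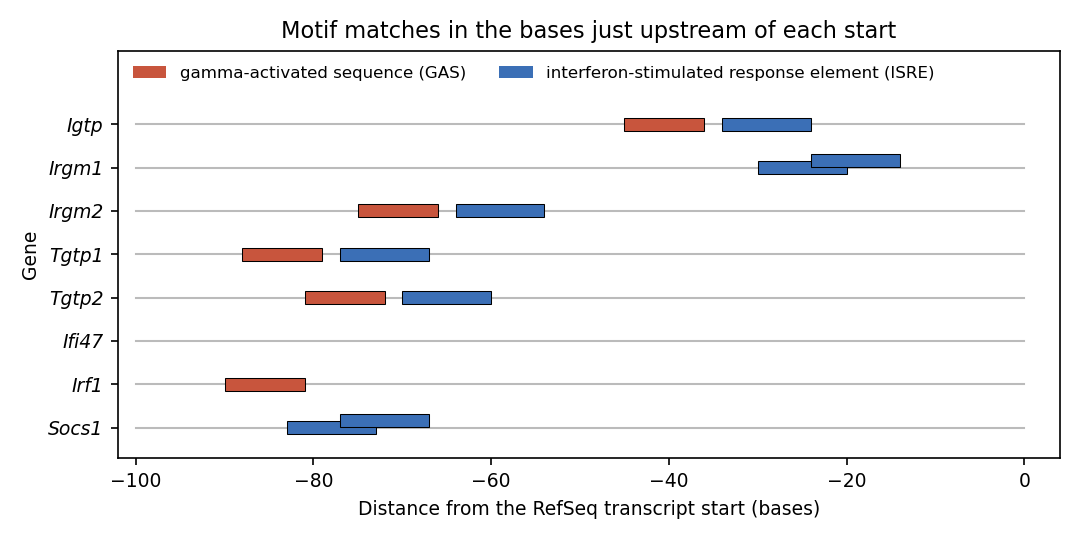
Position of motif matches in the 100 bases before the RefSeq transcript start of 8 members (x axis, bases from the start; red, GAS; blue, ISRE; overlapping matches are drawn offset). Igtp, Irgm2, Tgtp1 and Tgtp2 show a GAS directly followed by an ISRE, Irgm1 and Socs1 a pair of ISREs, Irf1 a GAS alone and Ifi47 neither.

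Depth was high, with 22543721 to 45624013 counts per library. Levels are CPM, the count scaled to library size, adjusted by TMM, a normalisation that sets the bulk of genes equal between libraries. The tissue pieces differed in their other contents. Melanocyte markers were high in every library (8 genes, summed level 10610 to 15840 CPM). Skeletal muscle markers (6 genes) summed to 2.61 to 190.6 CPM in ICI and to 16.5, 912.4 and 2108 CPM in RI, so RI replicates 1 and 2 stood apart from the other libraries in this. Fat cell markers summed to 0.0503 to 21.6 CPM in ICI and 31.8 to 51.4 in RI, and red cell genes were highest in ICI replicate 3 at 4478 CPM. No pair of libraries agreed within sampling noise. The labels do not tie the replicates to separate animals, so the tests measure the spread between these 6 samples only.

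All 9 genes had a lower estimate in RI than in ICI, and none of the differences passed the test. With edgeR's quasi-likelihood test and a threshold of 0.05 on the p-value adjusted by Benjamini-Hochberg over all tested genes, 0 of 9 members were called lower and 0 were called higher. At an unadjusted p under 0.05 the count was also 0, as it was with DESeq2 and with limma-voom after adjustment. Without ICI replicate 3, 4 of the 9 were lower at an unadjusted p under 0.05. Across all tested genes 9.18% were called, 4.72% lower and 4.46% higher in RI. The median log2 fold change of the members was -1.21, against 0.01 over all tested genes, of which 49.0% had a lower estimate. In each of the 9 genes the 2 groups overlapped, whereas 37.2% of tested genes had groups that did not overlap. The 9 genes were read in the same 6 libraries, so their common direction is not 9 independent observations.

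What the members shared was a wide spread inside both groups. Over the 14061 tested genes whose mean reached 1 CPM, the median ratio of the highest to the lowest of the 6 libraries was 1.80. For the 9 members the median ratio was 14.6, with a median of 6.08 within ICI alone and 6.26 within RI alone, against 1.28 and 1.39 over all genes. The standard error (SE) of the log2 fold change had a median of 0.858 for the members and 0.229 for all tested genes. ICI replicate 2 was the highest library for all 9 genes. ICI replicates 1 and 2 and RI replicate 1 were the 3 highest libraries for 8 of them, the exception being Irf1, where RI replicate 2 took the place of RI replicate 1. RI replicate 4 was the lowest library for 8 of 9, all but Socs1.

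**Figure D2:**
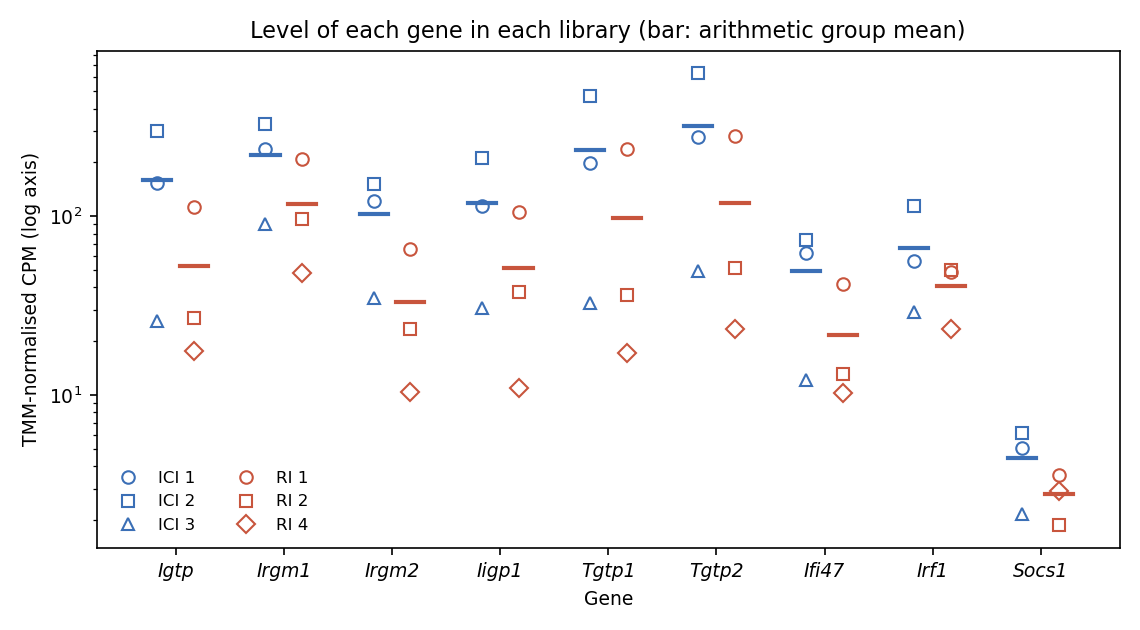
TMM-normalised CPM of the 9 genes in each of the 6 libraries (log axis; blue, ICI; red, RI; symbols mark replicates; horizontal bars are arithmetic group means, n = 3). Each gene's groups overlap, with ICI replicate 2 on top throughout and RI replicate 1 reaching the ICI range for every gene.

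Among the regulators, Igtp lies on chromosome 11 from 58199556 to 58207591 (GRCm38, plus strand). Its protein is found on the endoplasmic reticulum and on lipid droplets. It measured 154.0, 297.9 and 25.9 CPM in ICI replicates 1, 2 and 3, and 112.6, 26.9 and 17.6 CPM in RI replicates 1, 2 and 4. ICI replicates 1 and 2 and RI replicate 1 were high, the other 3 libraries were low, and the groups overlapped. The mean was 159 ± 136 CPM in ICI and 52.4 ± 52.4 in RI (SD, n = 3 each), a log2 fold change of -1.60 (SE 1.13, 95% interval -4.49 to 1.28, adjusted p = 0.377).

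Irgm1, the regulator best known for its role in resistance to mycobacteria and in autophagy, lies at 48861968 to 48871683 on chromosome 11 (minus strand). It measured 239.0, 327.8 and 90.6 CPM in ICI and 208.8, 96.5 and 47.8 CPM in RI. The order of libraries was that of Igtp, with a narrower range of 6.85 times from lowest to highest against 17.0 for Igtp. The group means were 219 ± 120 and 118 ± 82.5 CPM, with a log2 fold change of -0.90 (SE 0.68, 95% interval -2.58 to 0.79, adjusted p = 0.405).

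Irgm2 lies at 58199618 to 58222782 on chromosome 11 (plus strand), and its exons share 162 bases with those of Igtp, 8.01% of the exon length of Igtp. It measured 122.2, 151.5 and 34.7 CPM in ICI and 65.2, 23.3 and 10.4 CPM in RI. Here ICI replicate 3 exceeded RI replicates 2 and 4, and only RI replicate 1 kept the groups overlapping. The means were 103 ± 60.8 and 33.0 ± 28.6 CPM, and the log2 fold change of -1.64 (SE 0.86, 95% interval -3.81 to 0.53, adjusted p = 0.252) was the most negative of the 9.

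Of the effectors, Tgtp1 and Tgtp2 had the widest ranges. Tgtp1 (48985327 to 48994172, minus strand) and Tgtp2 (49057194 to 49064206, minus strand) are neighbours on chromosome 11, and their longest transcripts were 99.751% identical over 2811 bases. The sources used here do not say how reads that fit both were shared, so the split between the pair is uncertain. Tgtp1 measured 197.2, 469.8 and 32.7 CPM in ICI and 238.3, 36.1 and 17.2 CPM in RI. Tgtp2 measured 278.7, 629.1 and 49.3 CPM in ICI and 282.0, 51.3 and 23.4 CPM in RI. For both genes RI replicate 1 was the second highest library, above ICI replicate 1, and the highest library exceeded the lowest 27.3 times for Tgtp1 and 26.9 times for Tgtp2. The log2 fold change was -1.26 for Tgtp1 (SE 1.35, 95% interval -4.72 to 2.20, adjusted p = 0.561) and -1.42 for Tgtp2 (SE 1.29, 95% interval -4.72 to 1.87, adjusted p = 0.489).

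Iigp1, the best studied effector in Toxoplasma infection, is the GTPase among the 7 that lies away from chromosome 11, on chromosome 18 from 60376027 to 60392634 (plus strand). It measured 114.4, 211.9 and 30.7 CPM in ICI and 105.1, 37.6 and 10.9 CPM in RI. The same 3 libraries were high as for Igtp, and the groups overlapped. The means were 119 ± 90.7 and 51.2 ± 48.6 CPM (log2 fold change -1.21, SE 1.04, 95% interval -3.88 to 1.45, adjusted p = 0.467).

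Ifi47 (chromosome 11, 49076587 to 49096974, plus strand), the remaining effector, measured 62.0, 73.3 and 12.1 CPM in ICI and 41.6, 13.0 and 10.3 CPM in RI. Its library order was that of Igtp, although it was the member without a motif match among the 8 windows. Part of its exons overlap Olfr56 on the same strand (4.49% of exon length). The means were 49.1 ± 32.6 and 21.7 ± 17.4 CPM (log2 fold change -1.18, SE 0.85, 95% interval -3.33 to 0.97, adjusted p = 0.386).

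Irf1 (chromosome 11, 53770014 to 53778374, plus strand) varied less than the GTPases. It measured 55.8, 113.5 and 29.3 CPM in ICI and 49.1, 50.1 and 23.5 CPM in RI. ICI replicate 2 was high, RI replicates 1 and 2 were nearly equal, and the groups overlapped. The means were 66.2 ± 43.0 and 40.9 ± 15.1 CPM (log2 fold change -0.69, SE 0.54, 95% interval -2.01 to 0.62, adjusted p = 0.413). That estimate rested on ICI replicate 2, since without it the log2 fold change was -0.07.

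Socs1 (chromosome 16, 10782240 to 10785536, minus strand) was the lowest of the 9, with counts of 177, 243 and 104 in ICI and 101, 83 and 62 in RI. These correspond to 5.09, 6.12 and 2.17 CPM in ICI and 3.58, 1.87 and 2.89 CPM in RI. Counting error alone was 6.42% to 12.7% of a library's value, smaller than the 3.27-fold range across libraries. The means were 4.46 ± 2.04 and 2.78 ± 0.861 CPM (log2 fold change -0.68, SE 0.43, 95% interval -1.67 to 0.31, adjusted p = 0.303).

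**Figure D3:**
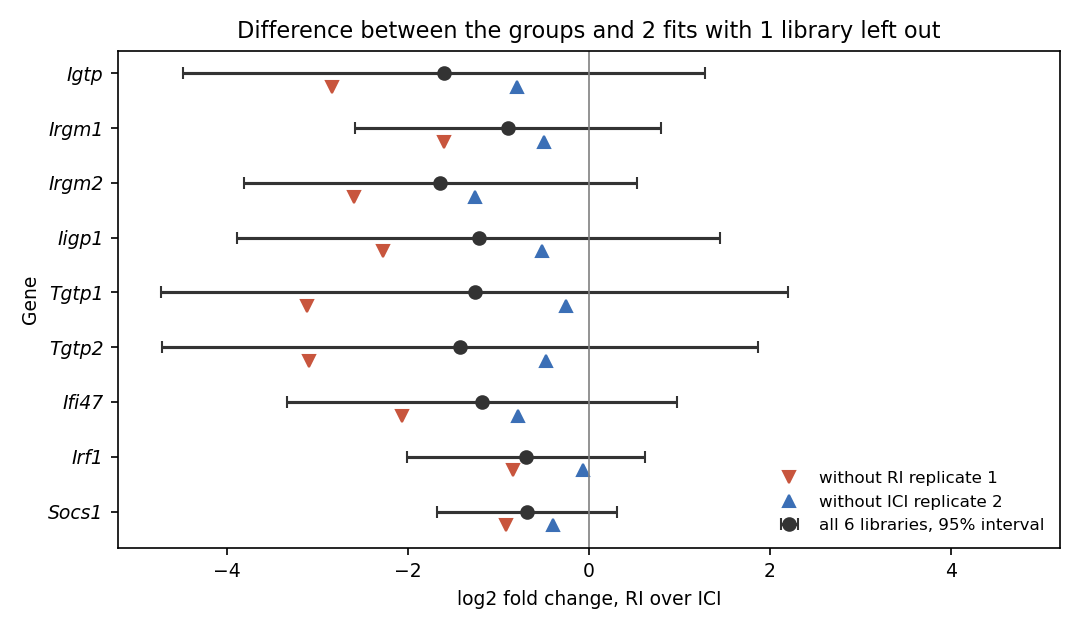
Log2 fold change of RI over ICI for the 9 genes (black points with 95% intervals, n = 3 libraries a group), with the same estimate without RI replicate 1 (red) and without ICI replicate 2 (blue). Every interval spans 0, and the estimates move from -3.12 to -0.25 for Tgtp1 between the 2 fits.

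The size of the difference depended on which tumours were counted. Without RI replicate 1, the RI library with high GTPase levels, the log2 fold change became -2.83 for Igtp, -2.59 for Irgm2, -3.09 for Tgtp2 and -2.28 for Iigp1. Without ICI replicate 2 it became -0.79 for Igtp, -1.26 for Irgm2, -0.48 for Tgtp2 and -0.51 for Iigp1. Under neither was any member called.

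Per kilobase of annotated exon, which allows a rough comparison of levels between genes, Tgtp2 was the most abundant at a mean of 74.5 CPM per kb over the 6 libraries. Its place above Tgtp1 rests on the uncertain split of reads between the pair. Igtp followed at 52.3, Tgtp1 at 51.6, Irgm1 at 29.0, Irgm2 at 18.4, Iigp1 at 14.6, Ifi47 at 14.3, Irf1 at 13.5 and Socs1 at 1.25 CPM per kb. Of neighbours in this order, Irgm1 exceeded Irgm2 and Irf1 exceeded Socs1 in all 6 libraries. Tgtp2 exceeded Igtp, and Igtp exceeded Tgtp1, in 5 of 6. The other neighbours changed places between libraries, with the higher one leading in 3 or 4 of 6. The SD over libraries was 12.9 for Iigp1, 11.2 for Ifi47 and 8.05 for Irf1, wider than the gaps between these 3. The length used was that of all annotated exons joined. It was 5823 bases for Iigp1 and 3976 for Irf1, whose longest transcripts have 3121 and 2137 bases. For Irgm2 it was 3690 bases against 3528. For Tgtp1 it was 3205 bases against 2823, and for Igtp 2022 by either measure. The order of Igtp and Tgtp1, and the order from Irgm2 down to Irf1, thus depend on the choice of length.

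Ratios within a library remove what all members share. Tgtp1 over Tgtp2 stayed between 0.663 and 0.845 in all libraries. How reads that fit both of these genes were shared is not known, so their ratio may not reflect their true levels. Tgtp2 over Irf1 varied more. It was 4.99, 5.54 and 1.68 in ICI and 5.75, 1.02 and 0.998 in RI. In the tumours with little GTPase RNA the GTPase was thus lower relative to Irf1 as well. The regulators did not stay in proportion. Per kilobase, Irgm2 over Irgm1 was 0.805, 0.728 and 0.603 in ICI and 0.491, 0.380 and 0.343 in RI, a mean of 0.712 ± 0.102 against 0.405 ± 0.0774 (SD, n = 3 each). All 3 RI libraries were below all 3 ICI libraries, RI replicate 1 included. Irgm2 over Ifi47 also separated the groups, with a mean log2 ratio of 1.18 ± 0.30 in ICI and 0.50 ± 0.43 in RI. These were 2 of the 36 pairs of members, picked out after all 36 were computed. The smallest exact two-sided permutation p that 3 against 3 libraries allow is 0.1, so no pair could pass a threshold of 0.05. The cause of the difference was not tested.

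**Figure D4:**
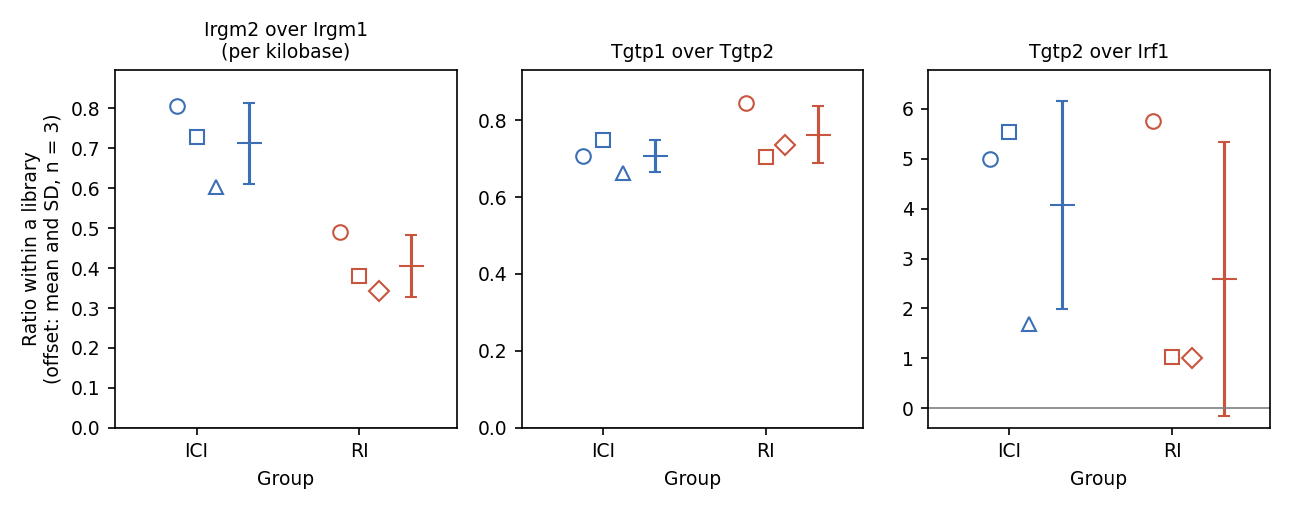
Ratio of 2 members within each library (y axes, no unit) by group (blue, ICI; red, RI; symbols mark replicates as 1, circle; 2, square; 3, triangle; 4, diamond; offset bars, mean and SD, n = 3). Irgm2 over Irgm1 is 0.603 to 0.805 in ICI and 0.343 to 0.491 in RI. Tgtp1 over Tgtp2 is nearly constant, with an uncertain split of reads between the pair. Tgtp2 over Irf1 is high in the same 3 libraries as the GTPases.

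The estimates for the rest of the GTPase family had the same direction. Of 11 other family genes in the table, 9 were tested, and all 9 had a lower estimate in RI, with a median log2 fold change of -1.47. By edgeR 0 of the 9 were called, with 3 lower at an unadjusted p under 0.05, 2 called by DESeq2 and 0 by limma-voom. The family gene Gm12250 measured 14.9, 25.9 and 2.17 CPM in ICI and 10.3, 1.51 and 1.17 CPM in RI, again high in the same 3 libraries. The predicted family gene 9930111J21Rik2 differed from the members in having no overlap between the groups: it measured 16.7, 7.57 and 4.997 CPM in ICI and 3.90, 3.27 and 3.36 CPM in RI (log2 fold change -1.47, SE 0.43, adjusted p = 0.0643). Irgq, a distant relative, ranged only from 19.9 to 38.6 CPM (log2 fold change -0.54, adjusted p = 0.117).

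Upstream of the GTPases, Ifng, the interferon gamma gene itself, was low, and in 4 of the 6 libraries near or at 0. Its counts were 8, 155 and 0 in ICI and 35, 0 and 2 in RI, or 0.230, 3.90 and 0 CPM and 1.24, 0 and 0.0933 CPM, and it did not pass the filter. The 3 libraries with the highest Ifng counts were the 3 with the highest GTPase levels. The place of ICI replicate 1 among them rests on 8 counts, against 2 in RI replicate 4, so this match is weak. A count of 0 allows up to 3 counts in that library, for counting error only. The list for the receptor and its signalling route includes factors shared with type I interferon. Of its 7 tested genes edgeR called 1 lower and none higher in RI. At an unadjusted p under 0.05, 4 were lower, and 3 were called by DESeq2 and 0 by limma-voom. The gene called by edgeR was Irf9, which is known mainly as a DNA-binding factor of type I signalling. This list's 1 edgeR call was thus not in a gene particular to interferon gamma. Irf9 measured 70.5, 50.7 and 53.8 CPM in ICI and 35.5, 39.6 and 38.7 CPM in RI (log2 fold change -0.62, SE 0.15, adjusted p = 0.0454). Jak1, the kinase shared by both interferon receptors, had a log2 fold change of -0.41 (adjusted p = 0.104), and the receptor chain Ifngr2 of -0.58 (adjusted p = 0.0775). The type I receptor route had 3 tested genes, of which edgeR called 0, with 1 lower at an unadjusted p under 0.05 and 0 called by DESeq2 or limma-voom.

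Among 16 other negative regulators of cytokine signalling, edgeR called 1 higher and 1 lower, where 9.18% of all tested genes were called. At an unadjusted p under 0.05, 4 were higher and 5 lower. DESeq2 called 7 and limma-voom 2, against 3449 and 1326 of all 16924 tested genes. In 12 of the 16 the groups did not overlap, against 37.2% of all tested genes. Socs2, an inhibitor best known from growth hormone signalling, measured 8.86, 8.56 and 8.03 CPM in ICI and 19.5, 18.6 and 15.8 CPM in RI (log2 fold change 1.08, SE 0.16, adjusted p = 0.0254). Its groups were far apart, unlike those of Socs1. Socs7 went the other way, at 44.7, 35.5 and 41.5 CPM in ICI and 24.3, 21.4 and 19.6 CPM in RI (log2 fold change -0.90, SE 0.15, adjusted p = 0.0266). Ptpn11, a phosphatase of receptor signalling, had a log2 fold change of -0.57 (adjusted p = 0.0517). Of 9 tested interferon regulatory factor genes and their cofactors other than Irf1 and Irf9, edgeR called 0, with 1 lower at an unadjusted p under 0.05, 1 called by DESeq2 and 0 by limma-voom. Irf7 measured 52.3, 13.3 and 21.9 CPM in ICI and 35.2, 6.83 and 12.7 CPM in RI.

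Of 27 other known interferon gamma targets, edgeR called 1 higher and none lower, where 9.18% of all tested genes were called. The estimate was lower in RI for 21 and higher for 6, with a median log2 fold change of -0.27. At an unadjusted p under 0.05, 3 were lower and 1 was higher. DESeq2 called 4 and limma-voom 1, against 3449 and 1326 of all 16924 tested genes. The gene that rose was Ifi30, a lysosomal thiol reductase of antigen processing, at 60.5, 67.1 and 66.2 CPM in ICI and 170.9, 101.6 and 102.1 CPM in RI (log2 fold change 0.95, SE 0.21, adjusted p = 0.0390). B2m, H2-D1 and H2-K1, genes of class I antigen presentation, were highest in RI replicate 1, not in ICI replicate 2. B2m, the light chain of class I molecules, measured 1687, 1748 and 865 CPM in ICI and 2234, 848 and 1337 CPM in RI (log2 fold change 0.04, adjusted p = 0.958). H2-D1, a class I heavy chain, had a log2 fold change of 0.12 (adjusted p = 0.913), and the chemokine gene Cxcl10 of -0.77 (adjusted p = 0.123). The calls of Irf9, Socs2, Socs7 and Ifi30 were lost in every fit without ICI replicate 1, ICI replicate 3, RI replicate 2 or RI replicate 4, with adjusted p from 0.0549 to 0.1645. Those 4 fits called 0, 2, 0 and 97 genes in the whole table, against 1553 with all libraries, so nearly every call was lost in them. The log2 fold changes in the same fits were 1.03 to 1.17 for Socs2, -0.89 to -0.83 for Socs7, -0.69 to -0.47 for Irf9 and 0.89 to 1.09 for Ifi30. Irf9 and Ifi30 also lost theirs without ICI replicate 2 (adjusted p = 0.0569 and 0.0771) and with a correction for gene length and GC content (0.0601 and 0.0754), and Irf9 with upper-quartile scaling (0.0578) and limma-voom (0.0556).

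The guanylate-binding proteins, a second family of interferon-induced GTPases that act beside the immunity-related ones, followed the same libraries. Of 11 genes 10 were tested, all 10 had a lower estimate in RI (median log2 fold change -1.11), and 0 were called by edgeR, at an unadjusted p under 0.05, by DESeq2 or by limma-voom. Gbp2, the most abundant, measured 90.2, 144.7 and 14.9 CPM in ICI and 64.6, 9.49 and 6.81 CPM in RI (log2 fold change -1.63, adjusted p = 0.406).

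Genes known mainly from type I interferon responses had a library profile that differed in part from that of the members. All 19 tested had a lower estimate in RI, with a median log2 fold change of -1.66. One of them, Herc6, a ligase for the ubiquitin-like protein Isg15, fell (log2 fold change -1.37, SE 0.29, adjusted p = 0.0374). In this list 10 of 19 genes were lower at an unadjusted p under 0.05, 7 were called with DESeq2 and 1 with limma-voom, and 7 had groups that did not overlap. Of all 16924 tested genes, edgeR called 1553, DESeq2 3449 and limma-voom 1326, and 37.2% had groups that did not overlap. The count without overlap is thus near that of genes at large. The share of all genes at an unadjusted p under 0.05 was not counted, so the 10 of 19 has no background beside it. The call of Herc6 was lost without any 1 library other than RI replicate 1, with adjusted p from 0.0569 to 0.1475 and log2 fold changes from -1.58 to -1.01, and with the length and GC correction (adjusted p = 0.0630). Their summed level was 2072, 1015 and 672.1 CPM in ICI and 694.4, 297.9 and 547.7 CPM in RI. It was thus highest in ICI replicate 1, whereas the 7 GTPases summed to 1168, 2161 and 275.9 CPM in ICI and 1054, 284.7 and 137.7 CPM in RI. The highest sums were still in the same libraries for both lists, ICI replicates 1 and 2 and RI replicate 1. For the type I genes RI replicate 1 was little above ICI replicate 3. Ifit3, an antiviral gene of this list, measured 302.7, 89.6 and 25.8 CPM in ICI and 49.8, 18.5 and 31.7 CPM in RI (adjusted p = 0.213).

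Autophagy conjugation genes, whose products help direct immunity-related GTPases to their target membranes, did not share the profile. Of 11 tested genes edgeR called 0, with 3 at an unadjusted p under 0.05, 1 called by DESeq2 and 0 by limma-voom, and the median log2 fold change was 0.15. Gabarap, a membrane-bound conjugation target, ranged from 119.5 to 213.9 CPM over the 6 libraries.

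The summed markers of T and NK cells, the main source of interferon gamma, were high in the same libraries as the members. The 13 markers summed to 100.7, 47.1 and 4.83 CPM in ICI and 41.0, 1.92 and 2.75 CPM in RI, so the 3 libraries with high GTPase levels were the 3 with high T and NK cell markers. All 11 tested markers had a lower estimate in RI (median log2 fold change -1.86), and 0 were called by edgeR, at an unadjusted p under 0.05, by DESeq2 or by limma-voom. Gzmb, a granule protease of killer cells, measured 28.9, 21.3 and 0.648 CPM in ICI and 17.5, 0.113 and 0.513 CPM in RI. Nkg7, another granule gene, measured 11.9, 4.03 and 0.355 CPM in ICI and 4.26, 0.113 and 0.513 CPM in RI. The one marker with no count in some libraries was the NK receptor gene Ncr1, named after its values were seen, with 2 counts in ICI replicate 3 and 0 in the other libraries. Klrb1c, an NK receptor gene also named for its values, had 8, 3 and 5 counts in ICI and 6, 3 and 1 in RI. The sum thus says little of NK cells apart from T cells. The order was not the same throughout, since the marker sum was highest in ICI replicate 1 and the GTPase sum in ICI replicate 2. The part of these cells in the levels of the 9 genes was not tested. In bulk tissue, fewer cells of a type and less RNA per cell cannot be told apart.

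Markers of macrophages, which also respond to interferon gamma, had another profile as a sum. The 10 markers summed to 205.5, 167.8 and 179.7 CPM in ICI and 353.5, 157.5 and 141.9 CPM in RI, with a single high library, RI replicate 1. By edgeR 0 were called, with 2 above ICI before adjustment (p under 0.05), 1 called by DESeq2 and 0 by limma-voom. C1qa, a complement gene of tissue macrophages, measured 41.8, 37.3 and 39.6 CPM in ICI and 73.5, 36.7 and 29.1 CPM in RI. Not every marker followed the sum. Adgre1 and Csf1r were highest in ICI replicate 3, at 9.81 and 12.2 CPM against 6.60 and 10.4 in RI replicate 1. Ly6c2 was highest in ICI replicate 1, at 24.4 CPM against 5.07 in RI replicate 1. The rest of the list was highest in RI replicate 1.

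**Figure D5:**
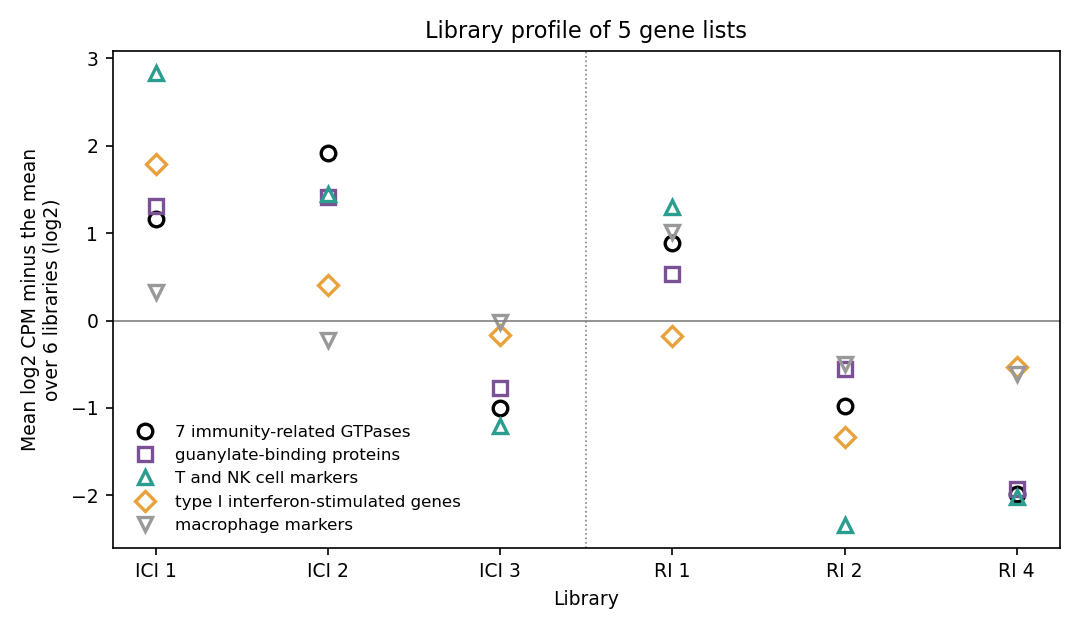
Mean log2 CPM of 5 gene lists in each library, less each list's mean over the 6 libraries (y axis, log2; libraries on the x axis with ICI left and RI right of the dotted line). The 7 GTPases, the guanylate-binding proteins and the T and NK cell markers are above 0 in ICI replicates 1 and 2 and RI replicate 1 and below 0 in the other 3 libraries. Type I genes are above 0 in ICI replicates 1 and 2 only and, like the T and NK cell markers, peak in ICI replicate 1. Macrophage markers peak in RI replicate 1.

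Profiles over the 6 libraries were compared with the mean of the 9 members by the root mean square distance of centred log2 CPM. The 12440 candidates were other genes whose mean reached 1 CPM, without those named only by a Gm number, a Rik name or an Ensembl identifier. Family genes such as Gm12250 could thus not be named. The closest candidates were Gbp7 (0.268), Gbp6 (0.314), Batf2 (0.364), Gbp8 (0.390), Gbp3 (0.393), Apol10b (0.412), Tap1 (0.447) and Tapbp (0.461), against a median distance of 1.24 over all candidates. Among the members themselves the distance was shortest for Ifi47 at 0.223 and longest for Socs1 at 0.769 and Irf1 at 0.654. Batf2 measured 15.6, 29.4 and 3.62 CPM in ICI and 10.6, 4.82 and 4.39 CPM in RI. Tap1 differed from the members in being highest in RI replicate 1, at 154.9 CPM against 108.1, 133.0 and 45.2 CPM in ICI. With 6 libraries that share depth and tissue makeup, these distances are a description.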

How the data were processed

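RNA from 6 B16 tumours was measured by bulk sequencing. The deposited table holds the authors' counts, as whole numbers for each gene. Per the submitters' processing notes, HISAT2 was used with GRCm38 and mm10; these notes give no counting tool, annotation or strand setting. Counts were analysed with edgeR 4.0.16 in R 4.3.3 (filterByExpr, TMM, robust quasi-likelihood fit, Benjamini-Hochberg adjustment over 16924 genes), with DESeq2 1.42.0 and limma 3.58.1 voom as alternatives. Both groups entered 1 fit without covariates. CPM are TMM-scaled, and log2 CPM for profiles used a prior count of 2.

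Positions, exon overlaps and lengths came from GENCODE M21 on GRCm38, which held 33888 of 34665 identifiers. Near-identical transcripts were found with blastn 2.17.0 (at least 200 bases at 95% identity). Upstream windows came from RefSeq.

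The 9 members and 24 gene lists were chosen with earlier results of these data known, so no list gives independent support. Named genes are the members, each list's called genes and up to 4 of its most abundant others (up to 2 for cell types), Ifng, and the 8 genes of closest profile. Not every gene the rule took is reported. Wars stood for Wars1. The alternatives were other scalings, filters and tools, a length and GC correction, a replicate block and leaving out each library.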

Additional observations from a re-analysis of the deposited data

How the results depend on the processing

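No member was called under any alternative run, including an adjusted p under 0.1. In the fits without ICI replicate 1, ICI replicate 3 or RI replicate 2, which called 0, 2 and 0 of all genes, this says nothing about stability. At an unadjusted p under 0.05, 4 of 9 members were lower with the replicate block (also with the length and GC correction) and without ICI replicate 3, and 1 without RI replicate 1, with no filter and with limma-voom. All 153 alternative log2 fold changes of members kept the lower direction in RI, with adjusted p from 0.0935 to 0.928. The 4 lists on interferon gamma signalling, negative regulators of cytokine signalling, interferon regulatory factors and interferon gamma targets held 59 tested genes. Of these 4 were called, where 9.18% of all tested genes were. The number was 9 with no filter on low counts, 15 with DESeq2, 2 with the length and GC correction and 12 at an adjusted p under 0.1. With 1 library left out it ranged from 0 (without ICI replicate 1, ICI replicate 3, RI replicate 2 or RI replicate 4) to 10 (without RI replicate 1). Calls over all genes moved the same way, from 1553 to 2628 with no filter, 3449 with DESeq2, 600 with the correction, 0 to 97 in the first 4 leave-out fits and 3109 in the last. The median log2 fold change of all genes was 0.10 with upper-quartile scaling and 0.23 with no filter, against 0.01. Replicates 1 and 2 are numbered in both groups, but the labels do not pair them, and their deviations correlated at 0.353 and 0.0909. With the replicate block 0 members and 5 genes of the 4 lists were called, Irf9, Ifi30 and Socs7 no longer among them (adjusted p = 0.107, 0.0520 and 0.0671). Depth bears on Socs1 and Ifng. For the GTPases the spread between libraries, a median SE of 0.858 for the members, sets the precision.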
